A study of Mus musculus with 2 samples.

Results

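The genes described here are 58 mouse genes for the proteins that choose and open DNA replication origins and copy DNA at the fork, a list drawn up by function. They were followed among 21314 protein-coding genes with a known start site. NRF1 (nuclear respiratory factor 1) binds GC-rich DNA at promoters and acts as a transcription factor. Its binding was read by ChIP-seq, immunoprecipitation of bound chromatin with an antibody to NRF1 followed by sequencing, in CH12.LX, a line grown from a mouse B-cell lymphoma of a female of strain B10.H-2aH-4bp/Wts, of unknown age and with no treatment named in the labels. The 2 libraries, replicates 1 and 2, are biological replicates of 1 group per the labels, and nothing says how far their cultures were kept apart. The data are peak lists, so they show where NRF1 was found on DNA and not how much of any gene was expressed, and the cell line label could not be checked by marker levels.

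DNA replication starts when the origin recognition complex, with Cdc6 and Cdt1, loads the ring-shaped MCM2-7 helicase onto DNA, a step called licensing that geminin restrains. Kinases and firing factors then add Cdc45 and the GINS complex to build the active CMG helicase. Behind it, polymerase alpha-primase lays down primers, the clamp loader RFC places the sliding clamp PCNA, and polymerases delta and epsilon copy the strands. Many of these genes are textbook targets of the E2F factors, which switch on genes at entry into S phase, and NRF1 is best known for nuclear genes of mitochondrial proteins.

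NRF1 recognises a 10-base palindromic GC-rich site, taken here as GCGCATGCGC or GCGCACGCGC on either strand. The first 5 sequences are the exact sites within 50 bp of the summit of an mm9 promoter peak, with 10 flanking bases, shown because they lay under 4 of the strongest member peaks. The last, of Mcm4, is an exact site with no mm9 peak. They are read along the gene, 5′ to 3′, from NCBIM37 (mm9), and capitals mark the site.
Pola2: gggaggaccgGCGCGTGCGCggggagggcg
Cdc7: gggaagaatcGCGCATGCGCgcctggcggc
Wdhd1: gcggcgggccGCGCATGCGCacagggcgag
Dna2: ggcgcctgctGCGCATGCGCagcgagctgg
Timeless: ggctcccggcGCGCACGCGCgttctgatcc
Mcm4: gcaccgcttcGCGCATGCGCgtctcagcac
The Pola2 site is at chr19:5964223-5964232, outside the gene model and 26 bp before a start, and the Wdhd1 (chr14:47896535-47896544) and Dna2 (chr10:62409764-62409773) sites also lie just before a start. The Cdc7 site, chr5:107393366-107393375, is in the 5′ UTR, and the Timeless site, chr10:127669366-127669375, is in an intron. The Mcm4 site, chr16:15637955-15637964, lies 471 bp before the start. No mm9 peak covered it, although the mm10 promoter peak of Mcm4 was among the strongest. Exact sites away from these summits, not printed, were also found in introns of Pold3 and Rpa1. No mm9 peak covered the Pold3 site, and the Rpa1 site lay under an mm9 peak of 226.

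A further 9 members had a best site with 1 mismatch. The 7 printed here show how near-consensus sites look under strong peaks and, in Pole4, under a weak one.
Cdt1: gcctactagcGCGCATGCCCcggagcgcgc
Gmnn: ttggctgggtGCGCAGGCGCacggaagcca
Rfc2: ggtgctctctGCGCAGGCGCaggaagagat
Pold2: gccgcaaacaCCGCATGCGCacaggaaacc
Orc3: agtgtggagtGCGCATGCACacggggccgc
Mcm6: cgactacattGCGCATGGGCaaaagcttca
Pole4: ggggccgaaaTCGCGTGCGCgcgctcagtc
These sites lie at chr8:125091831-125091840 for Cdt1, chr13:24853875-24853884 for Gmnn, chr5:135058520-135058529 for Rfc2 and chr11:5778396-5778405 for Pold2, all outside the gene model just before a start. The Orc3 site, chr4:34562153-34562162, has its centre in the first coding exon, the Mcm6 site, chr1:130256414-130256423, is 190 bp before a start, and the Pole4 site, chr6:82602875-82602884, is in the 5′ UTR. Gmnn and Rfc2 carry the same 10-base site. Rfc1 and Pola1 are the other 2 members of this class.

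The last set has 2 mismatches and is shown because strong peaks lay over it, with the summit inside the site.
Prim1: ggcggcgcagGTCCATGCGCgcgcagggat
Pold1: ccgcagctctGGGCCTGCGCgcagagggtt
Fen1: acgtcggcagGAGCAAGCGCactgagcaac
The Prim1 site is at chr10:127452222-127452231 and the Fen1 site at chr19:10278688-10278697, both outside the gene model, and the Pold1 site, chr7:51804183-51804192, is in the 5′ UTR.

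NRF1 was found at the promoters of most replication genes. A promoter peak was called where the summit of a peak in the authors' optimal set on mm10 lay within 1000 bp of a transcription start site. By that measure 46 of the 58 members (79.3%) were occupied, against 39.2% of all 21314 genes. Among the 8773 optimal peaks of higher signal the count was 36, where all genes gave 28.7%. The authors drew the optimal set from both replicates by irreproducible discovery rate, a method that keeps peaks whose ranks repeat between lists. Which lists were compared for this set was not examined, and it lacked 2173 of the 15936 conservative peaks. An optimal peak is therefore not taken here as one shown to repeat across the replicates. Taking as many top peaks from each replicate alone, replicate 1 gave 51 members against 40.5% of all genes, and replicate 2 gave 50 against 39.0%. The separate mm9 set gave 47 against 33.1% of 22208 genes. The list was chosen with results of these data known, so these counts carry no test.

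**Figure D1:**
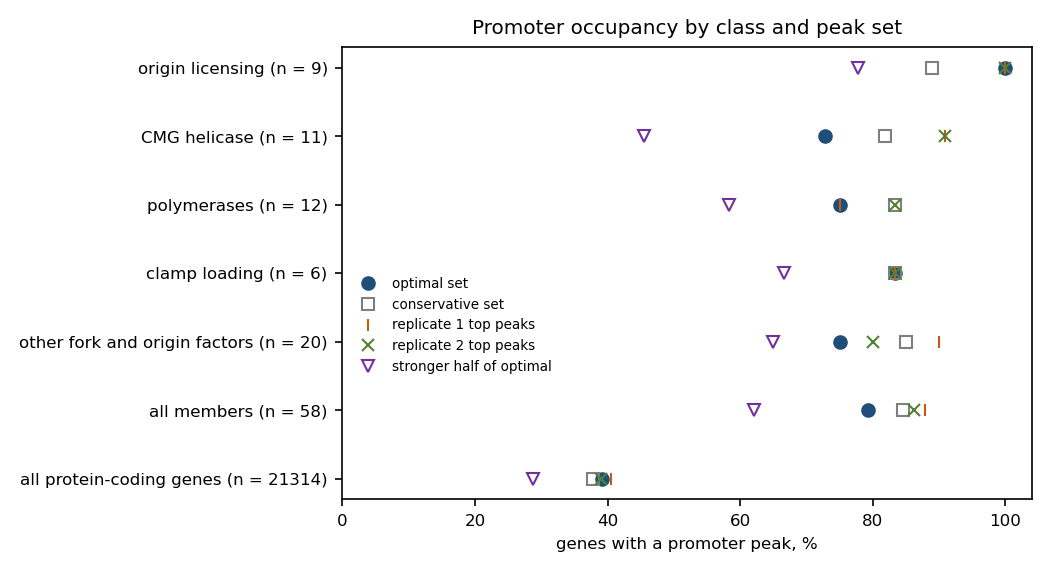
The share of genes with a promoter peak (horizontal axis, percent) is plotted for the 5 classes, all 58 members and all 21314 genes, with a symbol for each peak set. Licensing genes sit at 100% in the optimal set and in both replicates, and every class lies to the right of all genes in every set.

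Median signal differed between the classes, but the share of occupied genes with a signal above 200 differed less. All 9 licensing genes were occupied, with a median signal of 300. The CMG helicase had 8 of 11 occupied and a median of 76.3, the polymerases 9 of 12 and 165, and clamp loading 5 of 6 and 42.9. The other 20 fork and origin factors had 15 occupied and a median of 95.9. Signal is the authors' value per peak. Its scale is not given in the sources used, so it is compared only within a list. With 5 to 15 occupied genes a class, and signals spanning a wide range in each, these medians rest on few genes and the ranges overlap. Signals above 200 were found at 5 of 9 occupied licensing genes, 3 of 8 in the CMG helicase and 4 of 9 polymerases. Clamp loading had 2 of 5 and the other factors 6 of 15, against 3151 of all 8355 occupied genes. Counting MCM2-7 with licensing, since they are what is loaded, gave 14 of 15 occupied and a median of 225. Among the 8773 stronger peaks the CMG helicase kept 5 of 11 and licensing 7 of 9.

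**Figure D2:**
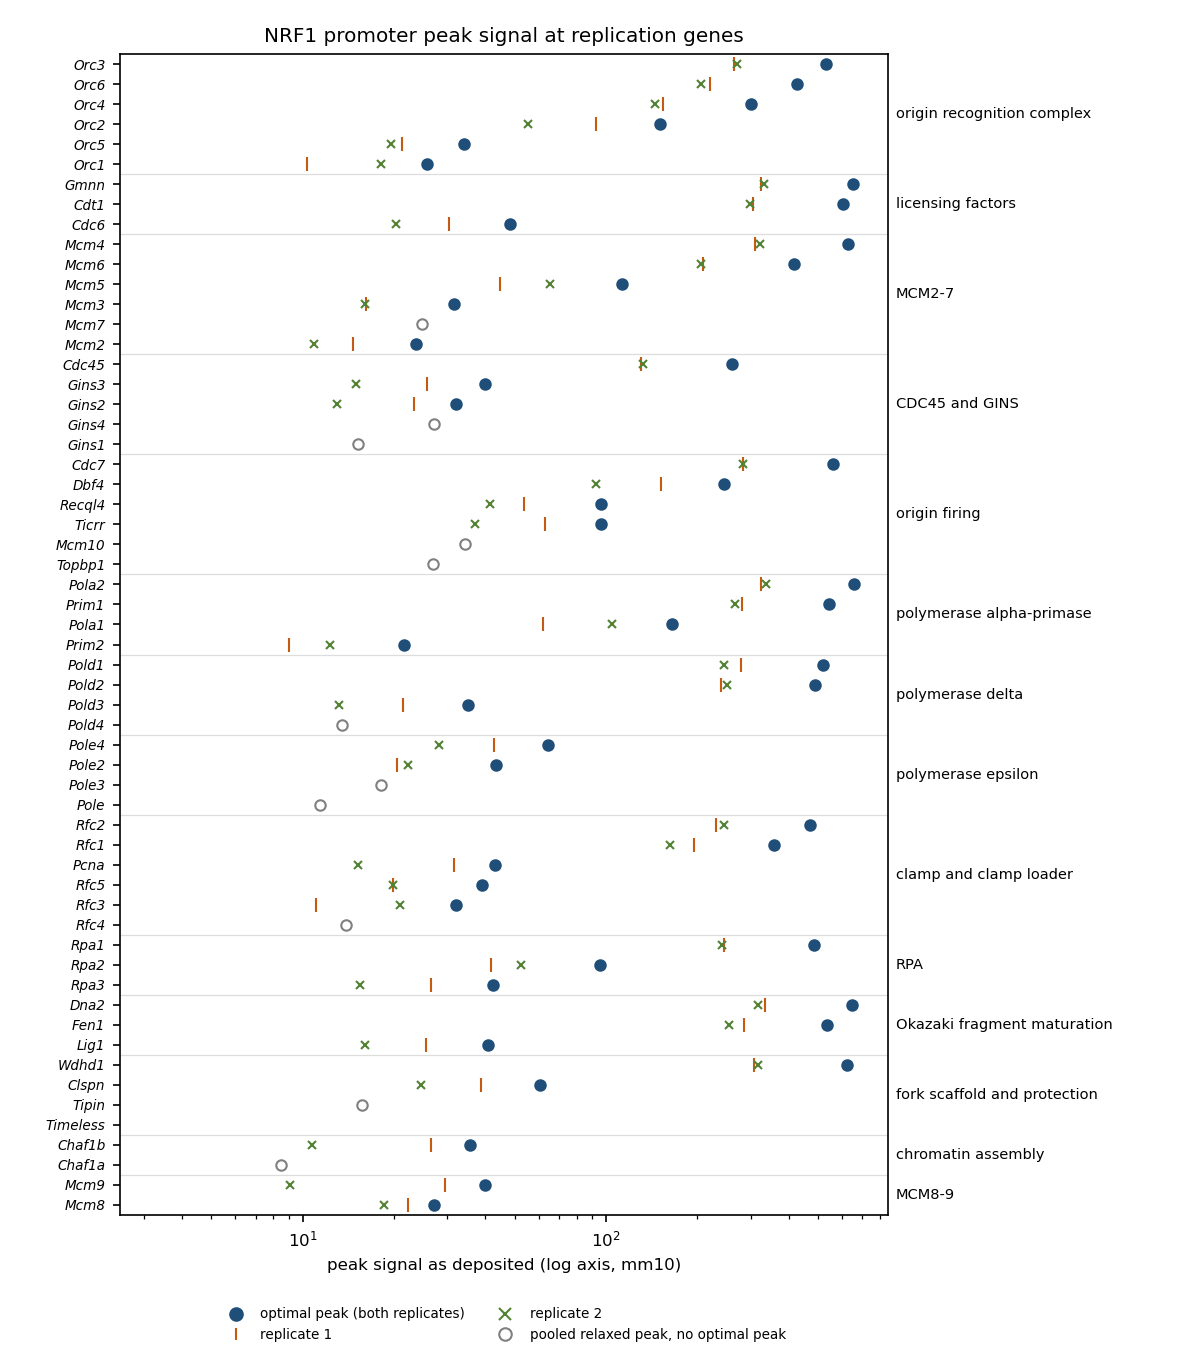
Peak signal as deposited (log axis) is plotted for each member by role: filled circles are optimal peaks, ticks and crosses the overlapping peaks of replicates 1 and 2, and open circles pooled relaxed peaks of members with no optimal peak. In 9 of the 13 roles with 2 or more occupied members the highest mm10 signal was over 10 times the lowest, and Timeless has no symbol.

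Member signals were described on either side of a line at 200. No occupied member fell between 165 and 244, but none fell between 64.3 and 95.4 either, so the gap was not read as a border between kinds of peak. The line, drawn after the values were seen, put 20 members above it and 26 at or below it. Over all occupied genes 3151 of 8355 lay above 200. The members' median was 105 (quartiles 39.9 and 488, range 21.6 to 659) against 85.6 (35.9 and 418) for all occupied genes. The members' signals thus lay within the range of other occupied genes, although a larger share of the members was occupied.

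Every subunit of the origin recognition complex, which marks origins and recruits the loader, had a promoter peak, but the 6 signals spread widely. Orc3 had the strongest, 531 (chromosome 4, 34614748 to 34615056, mm10), with 264 in replicate 1 and 271 in replicate 2, or 267 ± 5.05 (SD, n = 2). Orc6 at 425, Orc4 at 300 and Orc2 at 151 followed, with 34.0 at Orc5. Orc1, the large ATPase subunit, had the weakest at 25.7 (chromosome 4, 108579106 to 108579449), with 10.3 and 18.1 in the replicates. The replicate summits at Orc1 lay 243 bp apart, the widest gap of any member, and Orc1 was the only occupied member absent from the authors' conservative set.

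The licensing factors held a pair of strong peaks and a weak one. Geminin (Gmnn), the inhibitor of Cdt1, had a signal of 652 (chromosome 13, 24761844 to 24762178), with 325 and 331 in replicates 1 and 2. Cdt1, the loader it binds, had 602 (305 and 298; chromosome 8, 122567718 to 122568109). Both summits lay before the start, at 78 and 87 bp. Cdc6, the ATPase that acts with Cdt1, had 48.2 (30.3 and 20.3) with its summit 415 bp before the RefSeq start. The mm9 summit of Cdc6 lay nearer to a GENCODE start, at -143 bp, where negative is before the gene. On the mm10 scale the inhibitor and its target thus had like signals, and their loading partner had 8.01% of the Cdt1 value. Such ratios depend on the list: in the mm9 set Cdt1 had 7508, Gmnn 5035 and Cdc6 69.6.

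The MCM2-7 ring, whose subunits assemble in equal number, was marked unequally. Mcm4 had 628 (309 and 322; chromosome 16, 15637688 to 15638056), with the summit 463 bp before its start in the interval it shares with Prkdc, the divergent gene for the DNA-dependent protein kinase catalytic subunit. Mcm6 followed at 415 (209 and 206) and Mcm5 at 113 (44.8 and 65.5). Mcm3 had 31.6 (16.2 and 16.1), and Mcm2 had 23.6 (14.6 and 10.9), the weakest of the ring with a peak. Mcm7 had no optimal promoter peak. It did have a peak among the top ranks of both replicates (12.1 and 11.3), one in the conservative set and one in the mm9 set, the weakest mm9 promoter peak of any member at 35.7.

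Of the parts that turn the ring into the CMG helicase, only Cdc45 was strongly marked, at 261 (130 and 132). It shares its summit with the divergent gene Ufd1. Gins3 had 39.9 (25.7 and 15.0) and Gins2 32.0 (23.2 and 13.0). Gins1 and Gins4 had none in the optimal set. Gins4 was seen in the top peaks of replicate 1 alone (22.8, against 5.82 in replicate 2) and Gins1 in those of replicate 2 alone (10.2, against 5.31), so at these promoters the replicates did not give the same call. In the mm9 set Gins4 had 40.0, beside 39.0 for Gins3 and 46.2 for Gins2. The mm9 peak of Gins1, 131, is counted through another annotated start: its summit lay 578 bp before 1 GENCODE start and 4772 bp or more before the others, and the nearest mm10 optimal summit, of signal 100, lay 4734 bp before the RefSeq start.

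Among origin firing factors the kinase Cdc7 and its activator Dbf4 were both above 200. Cdc7 had 561 (283 and 282; chromosome 5, 106964120 to 106964699), the widest member peak at 580 bp, with its summit 90 bp inside the gene. Dbf4 had 244, with 152 in replicate 1 and 92.5 in replicate 2, the largest relative spread of any member above 200 (122 ± 41.9, SD, n = 2). Recql4, a helicase needed at initiation, had 96.4, and Ticrr, the treslin protein that brings in Cdc45, had 95.9 (62.8 and 36.9). Mcm10 and Topbp1 had no optimal promoter peak.

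Polymerase alpha-primase was occupied at all 4 genes and held both the strongest and the weakest peaks of all members. Pola2, its regulatory subunit, had 659 (325 and 338; 331 ± 9.11, SD, n = 2; chromosome 19, 5964004 to 5964424), above 99.4% of all occupied genes. Prim1, the catalytic primase subunit, had 543 (280 and 267), and Pola1, the catalytic polymerase, 165 (61.9 and 105). Prim2, the other primase subunit, had 21.6 (9.0 and 12.3; chromosome 1, 33669638 to 33669981), and was the only occupied member missing from a replicate's top peaks, those of replicate 1. The primase partners therefore differed 25.1-fold in signal on the mm10 scale, with no overlap of their replicate values.

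In polymerase delta the catalytic subunit Pold1 had 520 (278 and 244) and Pold2, its main partner, 489 (240 and 251). Pold3 had 35.2 (21.4 and 13.2) and Pold4 had no optimal peak. Polymerase epsilon was weak throughout. Pole4, a small histone-fold subunit, had 64.3 (42.8 and 28.2), and Pole2 had 43.3 (20.4 and 22.2) with its summit 240 bp inside the gene. The catalytic gene Pole and Pole3 had no optimal promoter peak. Epsilon thus had no subunit above 200, while alpha-primase and delta had 2 each.

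In clamp loading the RFC subunits split. Rfc2 had 471 (230 and 244; chromosome 5, 134582516 to 134582831) and Rfc1, the large subunit, 357 (195 and 162). Rfc5 had 38.9 (19.9 and 19.8), and Rfc3 32.1 (11.1 and 20.9). Rfc4 had no optimal peak. Pcna, the clamp itself, had 42.9, with 31.5 in replicate 1 and 15.2 in replicate 2, and no mm9 promoter peak. Its second peak, 492 bp inside the gene, had 32.6.

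RPA, which coats single-stranded DNA, was occupied at all 3 genes. Rpa1, the large subunit, had 486 (244 and 242) with a second peak of 144 lying 913 bp inside the gene. Rpa2 had 95.4 (41.8 and 52.4) and Rpa3 42.3 (26.4 and 15.4). Of the enzymes that finish Okazaki fragments, the nuclease-helicase Dna2 had 648 (334 and 318; chromosome 10, 62946819 to 62947213) and the flap nuclease Fen1 537 (284 and 254). The ligase Lig1 had 40.8 (25.5 and 16.1). At the fork scaffold Wdhd1, which ties polymerase alpha to the helicase, had 623 (308 and 318; chromosome 14, 47276690 to 47277041) with its summit on the start base. Clspn, the checkpoint mediator claspin, had 60.8 (38.6 and 24.6), 418 bp inside the gene. Of the histone chaperone CAF-1, Chaf1b had 35.7 (26.4 and 10.7) and Chaf1a none. The repair-linked helicase genes Mcm9 and Mcm8 had 40.0 (29.4 and 9.06) and 27.0 (22.3 and 18.5). Mcm8 has an overlapping second peak of 26.3, 91 bp inside the gene. Its replicate 1 summit lay 89 bp inside, by that second peak, and its replicate 2 summit 102 bp before the start.

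The 12 members without an optimal promoter peak were Mcm7, Gins1, Gins4, Mcm10, Topbp1, Pold4, Pole, Pole3, Rfc4, Timeless, Tipin and Chaf1a. Most had a peak in a looser list, but fewer had one of high rank. The relaxed list of the pooled replicates, which holds 300000 peaks and much background, had a promoter peak for 11 of them (91.7%), against 37.2% of the 12959 genes without an optimal promoter peak. Within the first 17547 ranks of that list 5 of the 12 had a promoter peak (41.7%), against 4.02% of those genes. Of the 12, 4 (33.3%) had a conservative peak, against 3.25% of those genes, and 3 (25%) were in the top peaks of both replicates, against 1.88%. Every one of the 17547 optimal peaks analysed has the same place and signal, to within 0.001, in the pooled list, so these signals can be read on the same scale.

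Mcm10, which helps the CMG helicase to start, had a pooled peak of 34.4 lying 65 bp before its start, above the optimal peak of Orc5 at 34.0, with 12.9 and 20.7 in the replicates. Its pooled rank was 9444, within the first 17547. Gins4 had 27.2, Topbp1, the activator of the checkpoint kinase ATR, 26.9 (16.8 and 8.90), and Mcm7 24.8, all above the weakest optimal member, Prim2. Below them came Pole3 at 18.1 (10.7 and 12.6), Tipin, the partner of Timeless, at 15.7 (14.2 and 5.25), Gins1 at 15.2, Rfc4 at 13.9 (7.05 and 6.03), Pold4 at 13.5 (8.05 and 5.70), Pole at 11.4 (3.59 and 7.07) and Chaf1a at 8.51 (5.07 and 3.36). So Mcm10, Mcm7, Pole3 and Topbp1, all in the conservative set, were left out of the optimal one. Over the whole genome 2173 of 15936 conservative peaks (13.6%) overlapped no optimal peak, for which the sources used give no reason.

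Timeless, a fork protection gene, stood apart from the other 11. No relaxed list had a peak within 1000 bp of its RefSeq start, and the nearest optimal summit lay 5765 bp before it, with a signal of 228. Measured from the 5′ end of the gene's span instead, Timeless counted as occupied, and its mm9 peak of 563 lay at a GENCODE start with the exact site printed above. The call for this gene therefore depends on which start is used. Rfc5, at 791 bp, is the occupied member whose strongest summit lies nearest to the 1000 bp limit, though a second peak of 37.7 lies 27 bp before its start. Outside the limit the nearest was Chaf1a, where a peak of 542 has its summit 3769 bp before the start.

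The replicates gave nearly the same values at the strong promoters and less similar ones at the weak. Of the 46 occupied members 45 were in the top peaks of both replicates. The optimal set that defines these members was itself drawn from both replicates, so this overlap is partly built in. Matching values over all occupied genes are not given here. Over all 46, the signals of replicates 1 and 2 had a rank correlation (Spearman's rho) of 0.92, and Pearson's r of their log2 values was 0.96. Above 200 the rho was 0.96 (20 genes) with a median coefficient of variation of 2.97%. At or below 200 it was 0.58 (26 genes) with a median of 31.7%, and replicate 1 was the higher in 19 of the 26. The summits of the replicates lay a median of 5.0 bp apart above 200 and 32.5 bp apart below. Mcm9 had the widest relative gap, 29.4 against 9.06, and Rfc3 the widest in the other direction, 11.1 against 20.9. Order among the weak members is therefore loose. Read depth is unknown, and its part in this was not tested.

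**Figure D3:**
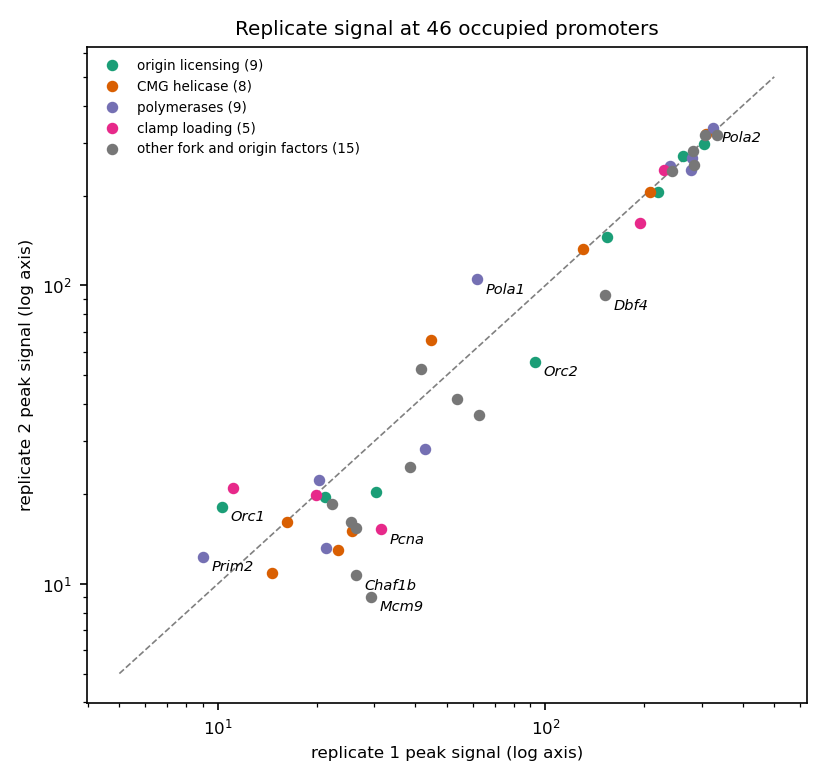
The signal of the overlapping peak in replicate 2 is plotted against that in replicate 1 for the 46 occupied members (both axes log, the dashed line marks equal values, colours are classes). The 20 members with an optimal signal above 200 hug the line apart from Dbf4, and weaker members scatter, with Mcm9 and Chaf1b far below it.

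NRF1 summits sat close to the start sites. Their median distance was 79.0 bp at members and 83.0 bp at all occupied genes. Within 100 bp were 28 of 46 (60.9%), against 55.4%. The summit was before the start at 33 of 46 (71.7%), against 60.8% of occupied genes. Strong members far from a start included Mcm4 at 463 bp before it and Orc4 at 266 bp before it, while Orc6 and Fen1 had summits 238 and 198 bp inside the gene. For Fen1 this holds for the RefSeq start only. Its mm9 summit lay at -30 bp from a GENCODE start, where negative is before the gene. A pair of promoter peaks was found at Mcm5, Rfc5, Pcna, Rpa1, Rpa3, Mcm8 and Mcm9.

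**Figure D4:**
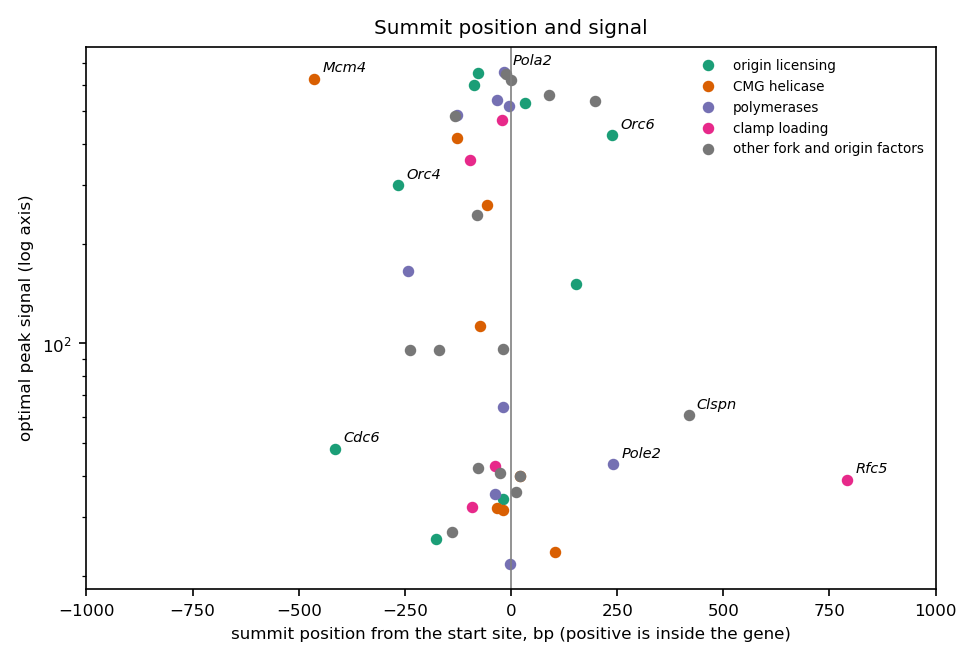
Optimal signal (log axis) is plotted against the summit's position from the start site in bp, negative before the gene and positive inside it, for the 46 occupied members. Points crowd within 100 bp of the start at all signals, with Mcm4 and Cdc6 far before it and Clspn and Rfc5 far inside.

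Some of these peaks also lay near the start of a gene on the other strand. At 14 of 46 occupied members (30.4%) the same summit lay within 1000 bp of such a protein-coding start, against 1699 of 8355 occupied genes (20.3%). These genes are called divergent here by strand alone, and head-to-head order was not checked. The pairs in licensing were Orc1 with Prpf38a, Orc3 with Rars2, Orc4 with Mbd5 and Orc6 with Vps35, so 4 of the 6 origin recognition genes share their peak. In the helicase the pairs were Mcm4 with Prkdc and Cdc45 with Ufd1. The others were Dbf4 with Slc25a40, Recql4 with Lrrc14, Rpa1 with Smyd4, Rpa3 with Umad1, Fen1 with Tmem258, Lig1 with Zswim9, Wdhd1 with Socs4 and Mcm8 with Trmt6. At such a promoter the peak cannot be assigned to either gene.

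The mm9 set, made by the authors from both replicates on the older build, listed 42 of the 46 occupied members. The order of signals was nearly the same in both (rho 0.98 over 42 genes, from the same libraries). The 4 left out were Mcm2, Prim2 and Pcna, which were weak on mm10, and Mcm4, which was not: its nearest mm9 summit was 40789 bp away. By GENCODE starts the mm9 set also counted Gins1, Gins4, Mcm7, Pole3 and Timeless. Of these, the calls for Gins1 and Timeless depend on the start: the optimal set has a summit at nearly the same distance, 4734 and 5765 bp, before their RefSeq starts as the mm9 summit has before another GENCODE start (4772 and 5769 bp). Neither set had a promoter peak for Chaf1a, Mcm10, Pold4, Pole, Rfc4, Tipin or Topbp1.

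Signal was higher where the letters under the summit were closer to the NRF1 consensus. Of 47 members with an mm9 promoter peak, 5 (10.6%) had an exact site within 50 bp of the summit, against 11.8% of the 7341 genes with such a peak. Up to 1 mismatch was found at 14 (29.8% against 39.0%), and up to 2 at 25 (53.2% against 66.7%). The members' shares were thus no higher than those of other occupied genes. Median mm9 signal was 5241 with an exact site, 1883 with 1 mismatch, 132 with 2 and 55.6 with more. The same medians over all genes were 2613, 1422, 146 and 64.7. The windows were centred on the summits, so site and signal come from the same peaks, and genes are not independent replicates.

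Pola2 led with an mm9 signal of 8748 over its exact site, and Cdc7 (6603), Wdhd1 (5241) and Dna2 (4456) were close. Timeless, with an exact site too, had 563. With 1 mismatch Cdt1 had 7508, Gmnn 5035, Rfc2 4790, Pold2 1911, Orc3 1883, Mcm6 889, Rfc1 778, Pola1 254 and Pole4 91.1. Gmnn and Rfc2, with the same 10 letters, had similar signals in the mm9 list, but in the mm10 optimal set they had 652 and 471. Pole4 showed that a near-consensus site at the summit can go with a weak peak. Among genes with 2 mismatches, Prim1 had 3026, Fen1 2235, Pold1 1657, Orc4 727 and Dbf4 377. Rpa1 at 1407, Orc6 at 1204, Cdc45 at 472 and Orc2 at 239 had no site within 2 mismatches, so some summits of high signal lay where these letters are not in the window.

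**Figure D5:**
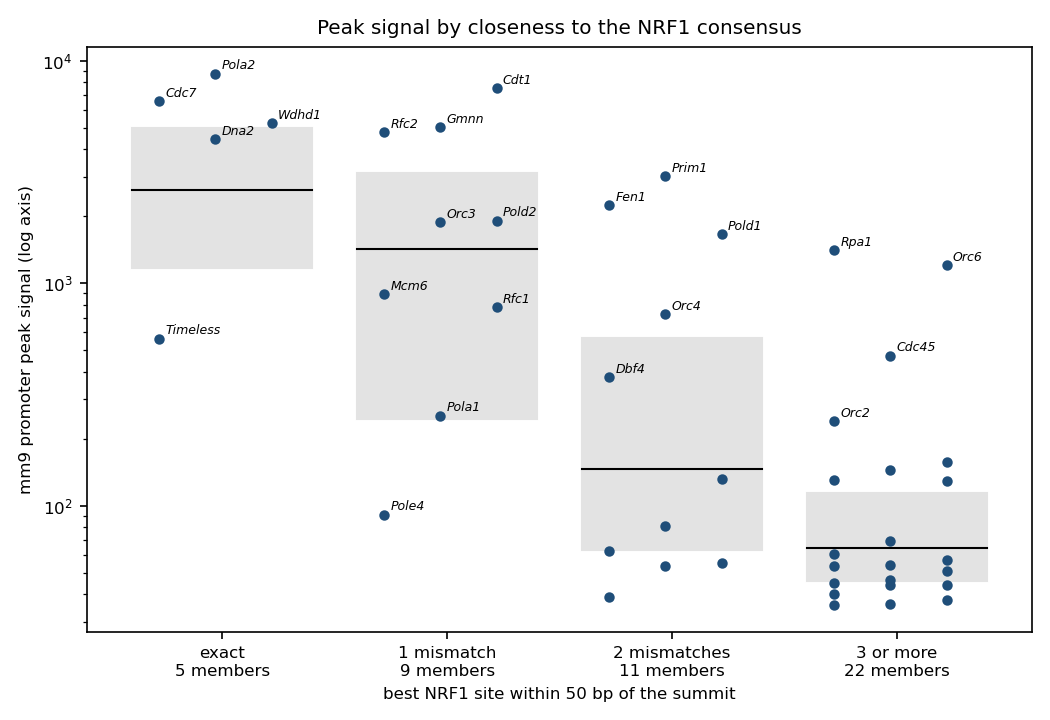
The mm9 promoter peak signal (log axis) of 47 members is plotted by the best NRF1 site within 50 bp of the summit; dots are members, grey boxes the quartiles and black lines the medians of all 7341 genes in each class. Members with an exact site or 1 mismatch lie at 778 or above, apart from Timeless, Pola1 and Pole4, and 18 of the 22 with 3 or more mismatches lie below 200.

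The promoters were also read for E2F sites, since E2F factors are the textbook regulators of these genes. The letters searched were TTTCGCGC and TTTGGCGC on both strands, in the RefSeq promoter table of GRCm38.p6, which gives 250 bases before and 50 after a start and held 48 of the 58 members. Such a site was present in 13 of the 48 (27.1%), against 1.10% of all 17273 genes in the table. The sites below are read along the gene, 5′ to 3′, with capitals on the E2F letters, and are shown because they mark genes where NRF1 signal was mostly low.
Orc1: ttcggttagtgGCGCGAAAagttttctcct
Mcm5: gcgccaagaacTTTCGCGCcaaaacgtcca
Mcm7: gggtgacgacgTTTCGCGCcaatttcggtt
Pole2: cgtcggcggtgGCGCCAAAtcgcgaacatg
Rfc3: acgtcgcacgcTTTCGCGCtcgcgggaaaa
Topbp1: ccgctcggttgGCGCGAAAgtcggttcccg
Mcm6: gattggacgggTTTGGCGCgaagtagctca
Their places on GRCm38.p6 are chr4:108579427-108579434 for Orc1, chr8:75109356-75109363 for Mcm5, chr5:138171860-138171867 for Mcm7, chr12:69228173-69228180 for Pole2, chr5:151651211-151651218 for Rfc3, chr9:103305198-103305205 for Topbp1 and chr1:128359745-128359752 for Mcm6. Mcm6 holds 3 such sites and Mcm5 2, with an overlapping pair in each. The others with a site were Cdt1, Clspn, Lig1, Mcm3, Mcm8 and Pola1.

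E2F letters and strong NRF1 peaks were mostly in different member promoters. Of the 13 members with an E2F site 11 had an NRF1 promoter peak, much as 40 of all 48 members searched did. Over all genes, 134 of the 190 with an E2F site had such a peak, against 6950 of all 17273 in the table. The 11 members had a median signal of 43.3 and a range from 25.7 at Orc1 to 602 at Cdt1. The 29 occupied members in the table without an E2F site had a median of 244. By signal, an E2F site was found in 2 of 17 members above 200 (11.8%; Cdt1 and Mcm6) and in 9 of 23 at or below it (39.1%). NRF1 sites with up to 1 mismatch, which were in 13.9% of all promoters in the table, ran the other way, with 9 of 17 (52.9%) and 2 of 23 (8.70%). The matching NRF1 shares over all genes were 58.4% above 200 and 9.63% at or below it, so this split was not particular to the members. Over all genes in the table the shares with an E2F site were 2.37% above 200 and 1.66% at or below it. An E2F site was present in 4 of the 5 MCM2-7 genes that the table holds. None of the 16 E2F sites of members overlapped an NRF1 site of up to 1 mismatch. Such overlap was uncommon over all genes too, with 13 sites where 190 genes held an E2F site. A match is a run of letters only, and E2F binding was not measured here.

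The member promoters were also rich in CpG, the dinucleotide that NRF1 sites contain. Median observed over expected CpG was 0.88, against 0.60 over all 17273 promoters and 0.82 over occupied ones. Median GC content was 63.2%, against 56.7% and 62.3%. The 8 members in the table without a promoter peak had a median CpG ratio of 0.81, with a range from 0.27 to 1.08, against a median of 0.30 for all unoccupied genes.

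Beyond the 58 genes, a further list of 43 replication genes gave 40 occupied (93.0%), against 39.2% of all genes, with a median signal of 141, against 85.6 for all occupied genes. All 10 origin regulators and S-phase kinases were occupied, with Ccna2, cyclin A, strongest at 652. The Ccna2 summit lay 917 bp inside the gene, and with promoters of 500 bp 9 of the 10 were occupied, without Ccna2. Of 10 nucleotide supply genes 9 were, led by Samhd1, a dNTP-cleaving enzyme, at 612. All 6 topoisomerase and RNase H2 genes were, with Top1 at 534. Among histone chaperones 6 of 7 were, with Tonsl at 533, and 3 of 4 alternative clamp loader genes, with Chtf8 at 335. The remaining 6 fork factors were all occupied, with Uhrf1, which recruits the DNA methyltransferase Dnmt1 to new DNA, at 447. Dctpp1, Dscc1 and Mms22l had none. This list too was made with earlier results of these data known.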

How the data were processed

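The peak lists were used as the authors deposited them. Per the notes among the deposited files, relaxed mm10 lists were called for each replicate and for the pool, each with a control (not analysed here), and the optimal and conservative sets were selected by irreproducible discovery rate. The mm9 set was made from both replicates. The deposited signal value of a peak comes from the authors' caller. The sources used name no aligner, caller, threshold or read number. Depth is therefore unknown, and no interval was computed. Signals on mm9 and mm10 were never compared as levels.

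Autosomes 1 to 19 and chromosome X were analysed with Python 3.11.15, numpy 2.4.6 and pandas 2.3.3. Start sites on mm10 came from the RefSeq promoter table of GRCm38.p6 (17273 genes, 48 members, every listed start) or else from the 5′ end of the RefSeq gene, with strand from GENCODE vM1 by symbol (4041 genes, 10 members). They covered 21314 of 21627 protein-coding genes. With several promoter peaks the strongest was used. The replicate value of a peak is the strongest overlapping relaxed peak, and a replicate's top peaks are its first 17547 by signal. Sequence at mm9 summits came from NCBIM37 with GENCODE vM1, and no coordinate was converted between builds. A site's feature is that of its centre. Calls and site searches were tested on simulated data.

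The members, their roles and the lists were chosen with earlier results of these data known. All members are accounted for. Values were given in full for the strongest and weakest of each role, all without a promoter peak, those nearest the 1000 bp limit and those with an NRF1 site at the mm9 summit. Others were chosen after their values were seen. The alternatives were other peak sets, promoters of 500 and 2000 bp, each replicate alone, and other site windows and mismatches.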

Additional observations from a re-analysis of the deposited data

How the results depend on the processing

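The count of 46 members with a promoter peak ran from 36, in the stronger 8773 peaks, to 51, and stayed within 1.5 times under every alternative. Leaving out a replicate gave 50 to 51 members, 10 in the CMG helicase, 9 to 10 in the polymerases, 9 in licensing and 5 in clamp loading. The CMG helicase count fell from 8 to 5 in the stronger peaks. Promoters of 500 or 2000 bp gave 46 members each. The median signal of 105 was 95.9 in the conservative set, with 49 members, and 113 with a single start at each gene's 5′ end, an alternative chosen after seeing the data that gave 43 members by losing Lig1, Orc1, Orc4 and Rfc1 and adding Timeless. Members with an NRF1 site at the mm9 summit numbered 5 with exact letters, 4 within 25 bp, 5 within 100 bp, 14 with up to 1 mismatch and 25 with up to 2, the last also chosen after seeing the data; looser letters find more by construction. No paired analysis was possible because there is 1 group. With 2 replicates and unknown depth, small differences among signals at or below 200 cannot be resolved, and the effect of depth was not tested.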
